A study of Mus musculus with 9 samples.

Results

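Desmosomes are the spot-shaped junctions that tie the keratin filaments of neighboring epithelial cells together. The 10 genes described here encode their parts: the desmogleins *Dsg2* and *Dsg3*, the desmocollins *Dsc2* and *Dsc3*, the plakin desmoplakin (*Dsp*), plakoglobin (*Jup*), the plakophilins *Pkp1*, *Pkp2* and *Pkp3*, and the desmosome-associated membrane protein *Perp*. They were taken by symbol from the gene table of the tumors, where all 10 were listed among 19481 genes. Of these, 9 had enough reads to be tested among 14725 genes, and *Dsc3* did not.

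The tumors were grown from KLN205, a mouse lung squamous cell carcinoma (LUSC) line, injected under the skin of female DBA/2 mice aged 6 to 8 weeks. The cells carried a SMART doxycycline-inducible shRNA, which was a control sequence in the sh Control group and a sequence against *Tmprss11b*, a transmembrane serine protease gene, in the sh2 Tmprss11b and sh3 Tmprss11b groups. All 3 groups, controls included, received doxycycline in their water from an average tumor volume of 100 mm3, and the tumors were resected on day 50. Each group held 3 tumors labelled as biological replicates. Every tumor derived from the same line in the flank and not in the lung, and host and carcinoma cells are both of mouse origin, so their RNA was not separated. In such bulk samples, fewer cells of a type and less RNA per cell cannot be told apart.

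In a desmosome, the desmogleins and desmocollins reach across the gap between cells and bind each other. Inside the cell their tails bind plakoglobin and the plakophilins, which in turn hold desmoplakin, and desmoplakin anchors the keratin filaments. In stratified squamous epithelium *DSG3* and *DSC3* are typical of the basal and lower layers, whereas *DSG2*, *DSC2* and *PKP2* are also found in simple epithelia and, for each of these, in heart muscle.

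The total count of a tumor was between 20653219 and 24047784 reads. Levels are given in CPM, in which each count is divided by the normalized total of the tumor, where 3 counts made between 0.123 and 0.152 CPM, a floor that covers counting error only. *Tmprss11b*, listed under its older symbol *Tmprss11bnl*, had 18, 51 and 42 counts in the control tumors, 7, 2 and 5 in the sh2 tumors and 10, 4 and 5 in the sh3 tumors, so every shRNA tumor was below every control tumor. Several tumors stood apart. The summed CPM of 8 epidermis genes (*Krt1*, *Krt10*, *Krt77*, *Lor*, *Flg2*, *Krtdap*, *Dsg1a* and *Dsc1*) was 149 in sh Control replicate 1 and between 4.14 and 7.49 in the other tumors. The summed CPM of 5 epithelial genes (*Epcam*, *Cdh1*, *Krt7*, *Krt8* and *Krt18*) was 6907 in sh2 replicate 2 and between 3180 and 5519 elsewhere. That of 6 fibroblast genes, such as *Col1a1*, was 2991 to 5307 with the control shRNA, 2334 to 3914 with sh2 and 1239 to 2199 with sh3, so it moved with the sh3 group, and its part in the sh3 values of the members was not tested. The summed CPM of 4 adipocyte genes, such as *Adipoq*, was 20.6 to 45.7 in control tumors, 8.06 to 30.2 with sh2 and 8.30 to 17.9 with sh3, and that of 5 endothelial genes, such as *Pecam1*, was 203 to 242, 185 to 216 and 138 to 215. That of 5 skeletal muscle genes, such as *Ckm*, was 12.0 to 2559 in control tumors, highest in sh Control replicate 3, 1.21 to 87.2 with sh2 and 68.9 to 831 with sh3. The part of these sums in the values of the members was not tested. The defining LUSC markers were uneven: *Sox2* ranged from 9.56 to 32.9 CPM, *Trp63*, the basal squamous regulator, from 0.370 to 6.94 CPM, and *Krt5* was at 87.3 CPM in sh Control replicate 1 and at most 5.02 CPM in the other tumors. Other basal squamous keratins were higher: *Krt14* ranged from 12.3 to 389 CPM and *Krt6a* from 46.4 to 292 CPM. The summed CPM of 7 basal squamous keratins was 207 to 802 in control tumors, 216 to 237 with sh2 and 62.9 to 397 with sh3.

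The members were then ordered by their median level in TPM, the deposited unit that accounts for gene length. *Perp*, a tetraspan protein needed for stable desmosomes in stratified epithelium, was highest with a median of 168 TPM (range 93.8 to 266, n = 9 tumors), followed by *Jup* with 125 TPM (range 89.1 to 170). *Perp* was above *Jup* in 7 of 9 tumors. *Pkp1* had a median of 64.7 TPM, *Pkp3* 54.7 TPM, *Dsg2* 47.0 TPM, *Dsp* 26.8 TPM, *Dsc2* 24.7 TPM and *Pkp2* 23.3 TPM. Neighbors in this order often overlapped: *Dsp* exceeded *Dsc2* in only 4 of 9 tumors, whereas *Jup* exceeded *Pkp1* in 9 of 9. *Dsg3* lay at a median of 1.50 TPM and *Dsc3* at 0.0203 TPM. The median of *Perp* was above that of 94.8% of all genes listed, and the median of *Dsc3* was above that of 12.6%.

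**Figure D1:**
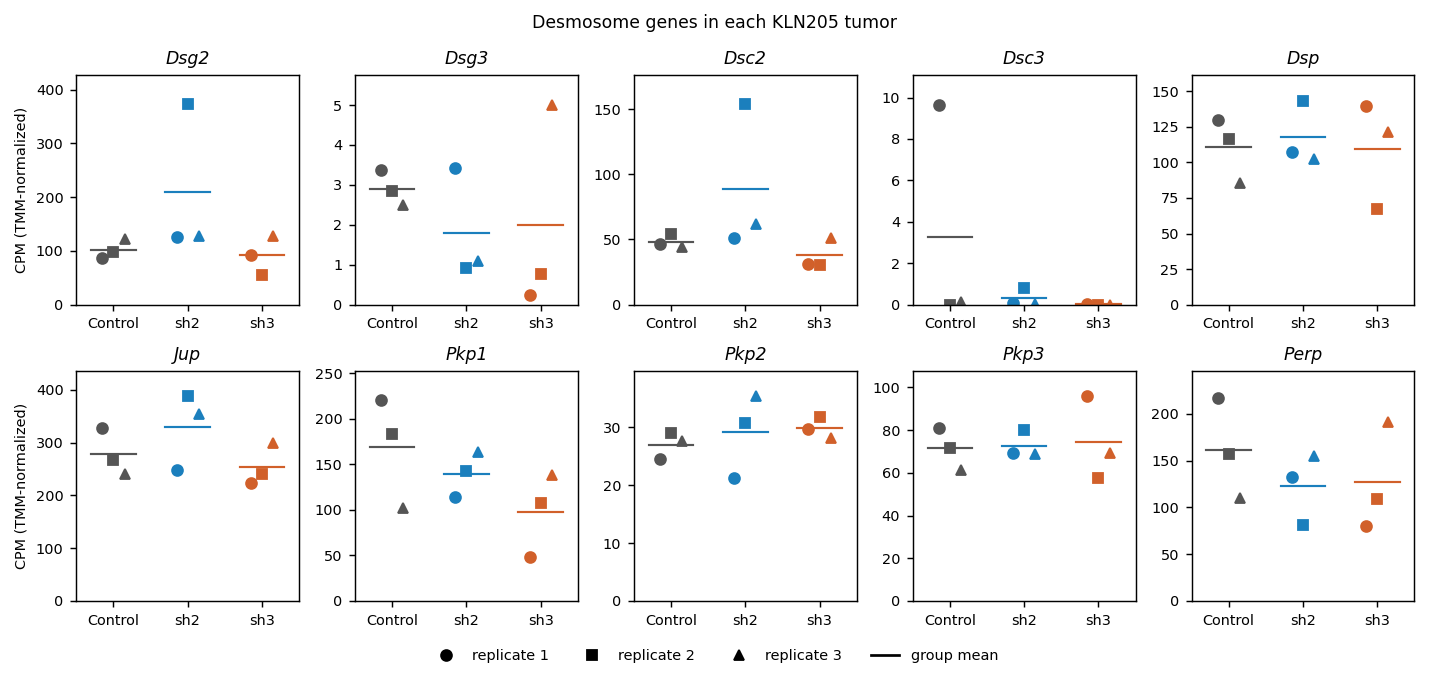
Level of each of the 10 desmosome genes in the 9 tumors, in TMM-normalized CPM on a linear axis that starts at 0 and has its own scale in each panel. Points are single tumors, the symbol gives the replicate number and the horizontal line is the mean of a group; *Dsg2* and *Dsc2* were highest in sh2 replicate 2 (373 and 154 CPM), and *Dsc3* was highest in sh Control replicate 1 (9.62 CPM).

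*Dsg2*, the desmoglein with the widest tissue range, was measured at 87.3, 98.0 and 121 CPM with the control shRNA, 126, 373 and 128 CPM with sh2, and 92.2, 54.5 and 128 CPM with sh3. All sh2 tumors were above all control tumors, narrowly except for sh2 replicate 2, and the sh3 tumors overlapped both other groups. The group means were 102 ± 17.4 CPM (SD, n = 3), 209 ± 142 CPM (SD, n = 3) and 91.7 ± 36.9 CPM (SD, n = 3).

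The log2 fold change of *Dsg2* in sh2 tumors against the control was 1.03 (standard error 0.45, 95% interval 0.01 to 2.05), with an unadjusted P of 0.048 and an FDR of 0.999 in edgeR's quasi-likelihood test over all genes tested. The exact permutation test gave P = 0.1, the smallest that 3 tumors against 3 allow. Without sh2 replicate 2, in which *Cdh1* was also highest at 681 CPM against 235 to 374 CPM elsewhere, the log2 fold change was 0.32 (unadjusted P = 0.352, edgeR). The TPM ratio of *Dsg2* to *Cdh1* was 0.42 in that tumor and 0.18 to 0.32 elsewhere. That of *Dsg2* to *Epcam* was 0.131 there and 0.028 to 0.068 elsewhere. The part of epithelial content in the *Dsg2* value was not tested. In sh3 tumors the log2 fold change of *Dsg2* was -0.16 (95% interval -1.17 to 0.86, FDR = 0.963, edgeR).

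*Dsg3*, the desmoglein of basal squamous cells, was sparse, at 3.36, 2.85 and 2.5 CPM with the control shRNA, 3.41, 0.918 and 1.08 CPM with sh2 and 0.231, 0.762 and 5.00 CPM with sh3. The control tumors lay close together, while each shRNA group held 1 tumor above all controls and 2 below them. Its log2 fold changes, -0.68 (95% interval -2.78 to 1.42) in sh2 tumors and -0.53 (95% interval -2.62 to 1.56) in sh3 tumors, had the widest intervals of the 9 genes tested (FDR = 0.999 and 0.928, edgeR). Single tumors set these values: the sh2 value was -1.53 without sh2 replicate 1 and -0.36 without sh2 replicate 2, and the sh3 value was -2.57 without sh3 replicate 3 and -0.00297 without sh3 replicate 1.

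*Dsc2*, the desmocollin of simple as well as stratified epithelium, was at 46.3, 54.4 and 44.1 CPM with the control shRNA, 50.9, 154 and 61.6 CPM with sh2 and 31.3, 30.4 and 51.5 CPM with sh3. It was highest in sh2 replicate 2, as *Dsg2* was, and 2 of the 3 sh3 tumors were below every other tumor. The log2 fold change was 0.88 in sh2 tumors (95% interval -0.02 to 1.78, unadjusted P = 0.0539, FDR = 0.999, edgeR) and -0.36 in sh3 tumors (95% interval -1.25 to 0.54, FDR = 0.885, edgeR). Without sh2 replicate 2 the sh2 value was 0.22, and without sh3 replicate 3 the sh3 value was -0.67.

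*Dsc3*, the desmocollin of the basal epidermis, had 226 counts in sh Control replicate 1 and 17 in sh2 replicate 2. The other 7 tumors had 3 counts or fewer, and 3 of them had none. Its 9.62 CPM in sh Control replicate 1 thus came from a single tumor of the group. That tumor was also the highest for all 8 epidermis genes listed above, among them *Dsg1a*, the desmoglein of the upper epidermis, at 7.87 CPM against at most 0.338 CPM elsewhere, and *Dsc1*, its desmocollin counterpart, at 3.23 CPM against at most 0.193 CPM elsewhere. The genes with the pattern most like that of *Dsc3* over the 9 tumors were *Dmkn*, *Col17a1* and *Lgals7*, with root mean square differences of 0.54, 0.84 and 0.85 in mean-centred log2 CPM, all 3 highest in the same tumor. The summed CPM of 4 hair follicle genes, such as *Tchh*, was 18.4 in sh Control replicate 1 and between 12.4 and 23.6 in the other tumors. Of the 10 epidermis genes sought, *Krt2* and *Flg* were not among the genes listed. The part of host skin in the *Dsc3* value was not tested. No fold change was fitted for *Dsc3*, and the exact permutation tests gave P between 0.2 and 0.8 over its 4 comparisons.

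Within each cadherin pair, the form shared with simple epithelia made up most of the transcripts in all 9 tumors. *Dsg2* contributed between 94.8% and 99.7% of the summed TPM of *Dsg2* and *Dsg3*. *Dsc2* contributed 85.3% of the summed TPM of *Dsc2* and *Dsc3* in sh Control replicate 1 and at least 99.6% in the other tumors. The TPM ratio of *Dsg2* to *Dsc2* stayed between 1.38 and 2.27, a range of 1.65-fold, while *Dsg2* itself spanned 6.85-fold in CPM. All 4 cadherin genes lie on the same chromosome, 18 in mouse, where the desmocollin and desmoglein genes form a cluster.

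**Figure D2:**
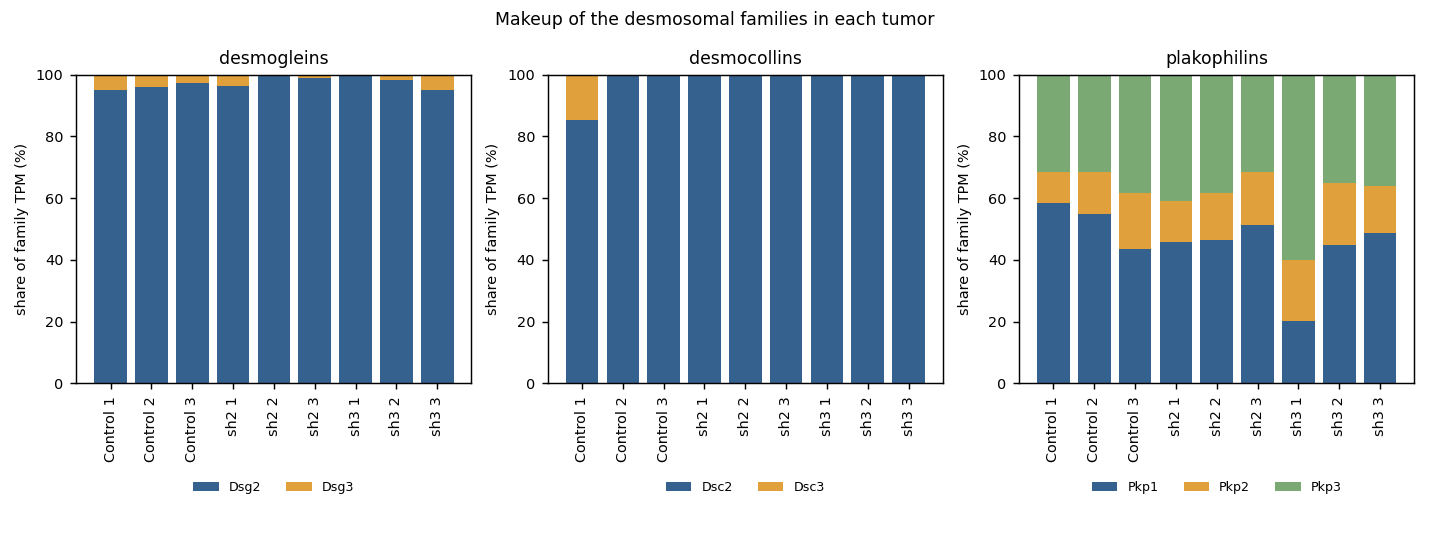
Share of each gene in the summed TPM of its family, in percent, for the desmogleins, desmocollins and plakophilins; each bar is 1 tumor. *Dsg2* takes between 94.8% and 99.7% of its bars, lowest in sh3 replicate 3. *Dsc2* fills nearly all of its bars except in sh Control replicate 1 (85.3%), where *Dsc3* is visible, and *Pkp1* takes 20.3% in sh3 replicate 1.

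*Jup* (plakoglobin, an armadillo protein related to β-catenin that also occurs in adherens junctions) was at 327, 268 and 241 CPM with the control shRNA, 248, 388 and 354 CPM with sh2 and 224, 241 and 299 CPM with sh3. The 3 groups overlapped, and the level spanned 1.73-fold over all tumors. Its log2 fold change was 0.25 in sh2 tumors (95% interval -0.21 to 0.70) and -0.13 in sh3 tumors (95% interval -0.59 to 0.33), with FDR of 0.999 and 0.918 from edgeR. Over the fits without 1 tumor, these values stayed between 0.12 and 0.41 and between -0.28 and -0.01.

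Among the plakophilins, *Pkp1*, which strengthens desmosomes in squamous epithelium, varied most. It was measured at 221, 183 and 102 CPM with the control shRNA, 114, 143 and 163 CPM with sh2 and 47.8, 108 and 138 CPM with sh3. The sh3 replicate 1 tumor was below all others, and the groups overlapped. The log2 fold change was -0.27 in sh2 tumors (95% interval -1.15 to 0.61, FDR = 0.999, edgeR) and -0.78 in sh3 tumors (standard error 0.39, 95% interval -1.66 to 0.10, unadjusted P = 0.0753, FDR = 0.76, edgeR). Without sh3 replicate 1 the sh3 value was -0.45, and without sh Control replicate 1 it was -0.55. The sh2 value was -0.03 without sh Control replicate 1 and -0.53 without sh Control replicate 3. The sh3 replicate 1 tumor was also lowest for *Krt14* (12.3 CPM against 59.9 to 389 CPM elsewhere) and for *Grhl1*, an epithelial transcription factor (3.79 CPM against 12.9 to 37.5 CPM). The part of these differences in the *Pkp1* value was not tested.

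*Pkp2*, the plakophilin of simple epithelium and heart, ranged only from 21.3 to 35.4 CPM, and *Pkp3*, which occurs in most desmosomes of epithelia, from 57.7 to 96.0 CPM. Both spanned 1.66-fold over the 9 tumors, the narrowest ranges among the members. The 95% intervals of their log2 fold changes in all 4 comparisons lay between -0.41 and 0.57. Their small differences changed sign with the scale: in log2(TPM + 1) the mean difference between sh3 and control tumors was -0.04 for *Pkp2* and -0.15 for *Pkp3*, on a scale where the median of all genes tested was itself shifted by -0.16. The makeup of the plakophilins varied mainly with *Pkp1*, which gave between 43.3% and 58.4% of their summed TPM in 8 tumors and 20.3% in sh3 replicate 1, where *Pkp3* gave 60.1%.

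*Dsp*, which links the junction to keratin, was at 130, 117 and 85.7 CPM with the control shRNA, 107, 143 and 103 CPM with sh2 and 139, 67.4 and 121 CPM with sh3. The means of the 3 groups, 111 ± 22.8 CPM, 118 ± 22.4 CPM and 109 ± 37.5 CPM (SD, n = 3 each), differed by less than the SD of any group. Its log2 fold change was 0.09 in sh2 tumors (95% interval -0.54 to 0.71) and -0.02 in sh3 tumors (95% interval -0.64 to 0.60).

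The level of *Perp* was 217, 157 and 110 CPM in control tumors, 133, 81.1 and 155 CPM with sh2 and 80.6, 109 and 192 CPM with sh3. The groups overlapped, with the highest tumor among the controls and the lowest tumors in both shRNA groups. The log2 fold change was -0.40 in sh2 tumors (95% interval -1.23 to 0.44) and -0.35 in sh3 tumors (95% interval -1.18 to 0.49), with FDR of 0.999 and 0.88 from edgeR. Without sh Control replicate 1 the values were -0.12 and -0.085, whereas the sh2 value was -0.61 without sh Control replicate 3 and the sh3 value was -0.79 without sh3 replicate 3. Without sh Control replicate 1 and sh2 replicate 2, left out together after seeing the data, the sh2 value was 0.10.

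**Figure D3:**
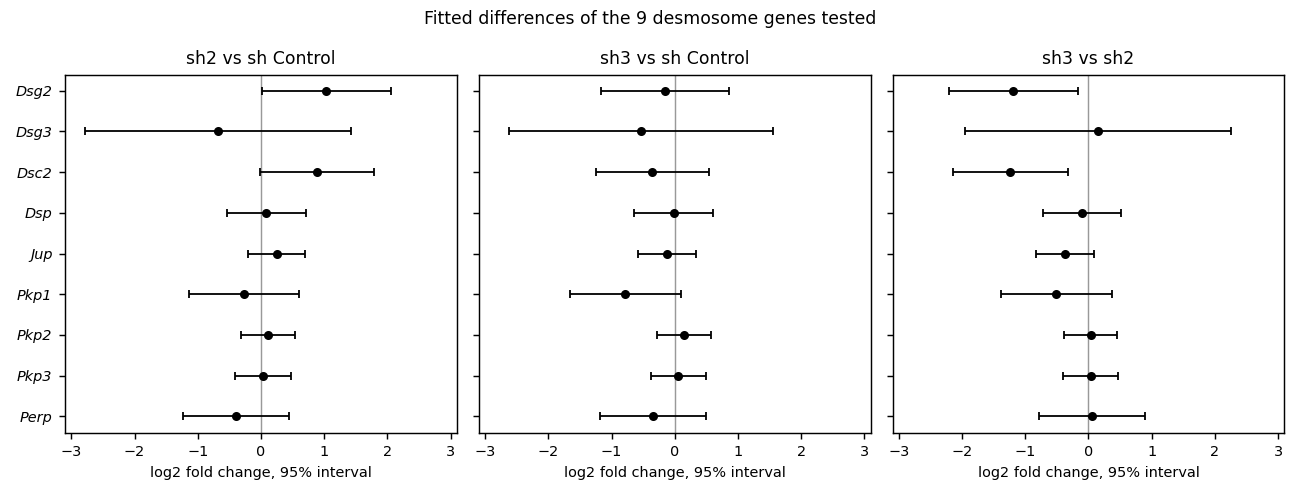
Log2 fold change of the 9 desmosome genes tested, from the edgeR fit of all 9 tumors; points are estimates, bars are 95% intervals and the vertical line marks 0. All intervals for sh3 against the control include 0, and the intervals that do not include 0 are those of *Dsg2* for sh2 against the control (0.01 to 2.05) and of *Dsg2* and *Dsc2* for sh3 against sh2.

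The comparisons of each shRNA with the control share the control tumors. No member passed an FDR of 0.05 with either shRNA in edgeR's quasi-likelihood test, and 0% of the 14725 genes tested did. At an unadjusted P under 0.05, 1 of 9 members with sh2 (*Dsg2*, higher) passed, beside 3.52% of all genes, and with sh3 none did, beside 6.63%. *Dsg2* was also the only member whose sh2 and control tumors did not overlap, beside 11.4% of all genes, and with sh3 no member separated, beside 12.2%. No member passed an FDR of 0.05 in DESeq2's Wald test or edgeR's likelihood ratio test either. Those tests called 2 and 0 of all genes with sh2 and 41 and 8 with sh3.

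The median log2 fold change of the 9 members was 0.09 with sh2 and -0.16 with sh3, beside 0.01 and 0.03 for all genes tested. Single tumors moved both: the sh2 median was -0.068 without sh Control replicate 3, and the sh3 median was -0.58 without sh3 replicate 3 and -0.085 without sh Control replicate 1. With sh2, 6 of 9 members had a value above 0 (51.8% of all genes), and with sh3, 2 of 9 did (54.9% of all genes). For both shRNAs averaged against the control, the median of the members was 0.04 (-0.092 without sh Control replicate 3) beside 0.02 for all genes, 6 of 9 members were above 0 (55% of all genes), and no member separated from the controls (2.17% of all genes). No member had an unadjusted P under 0.05 (4.09% of all genes did), and the smallest, for *Pkp1*, was 0.145 at a log2 fold change of -0.53 (95% interval -1.27 to 0.22), which was -0.29 without sh Control replicate 1.

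The shRNAs were also compared with each other. In sh3 tumors *Dsc2* was at 37.7 ± 11.9 CPM (SD, n = 3) against 89.0 ± 56.9 CPM (SD, n = 3) in sh2 tumors, a log2 fold change of -1.24 (standard error 0.40, 95% interval -2.14 to -0.33, unadjusted P = 0.013, FDR = 0.673, edgeR). For *Dsg2* the value was -1.19 (standard error 0.45, 95% interval -2.21 to -0.16, unadjusted P = 0.0276, FDR = 0.673, edgeR). The tumors of the shRNA groups overlapped for these and all other members, beside 10.2% of all genes that did not. These were the 2 of 9 members with an unadjusted P under 0.05, beside 7.18% of all genes, 4 of 9 had a value above 0, beside 54.9%, and no difference between the shRNAs passed the FDR threshold in this test. Without sh2 replicate 2 the values were -0.59 for *Dsc2* (unadjusted P = 0.0482, edgeR) and -0.48 for *Dsg2* (unadjusted P = 0.175, edgeR).

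To describe how the members varied among themselves, the level of each gene in each tumor was set against the mean of that gene over all tumors. The sh2 replicate 2 tumor was the highest of all 9 for *Dsg2*, *Dsc2*, *Dsp* and *Jup*, but had the second lowest level of *Perp*. The sh Control replicate 1 tumor was highest for *Dsc3*, *Pkp1* and *Perp*. The lowest values were gathered in sh3 replicate 1 (*Dsg3*, *Jup*, *Pkp1* and *Perp*) and sh3 replicate 2 (*Dsg2*, *Dsc2*, *Dsp* and *Pkp3*), and sh3 replicate 1 was at the same time the highest for *Pkp3*. The sh3 replicate 3 tumor was highest for *Dsg3*, and it was lowest for no member apart from *Dsc3*, which had no counts in it or in 2 other tumors. In sh3 replicate 2 the summed CPM of 5 leukocyte genes (*Ptprc*, *Cd3e*, *Cd68*, *Itgam* and *Lyz2*) was 2716, against 835 to 1552 in the other tumors, and the part of this in its low values was not tested.

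**Figure D4:**
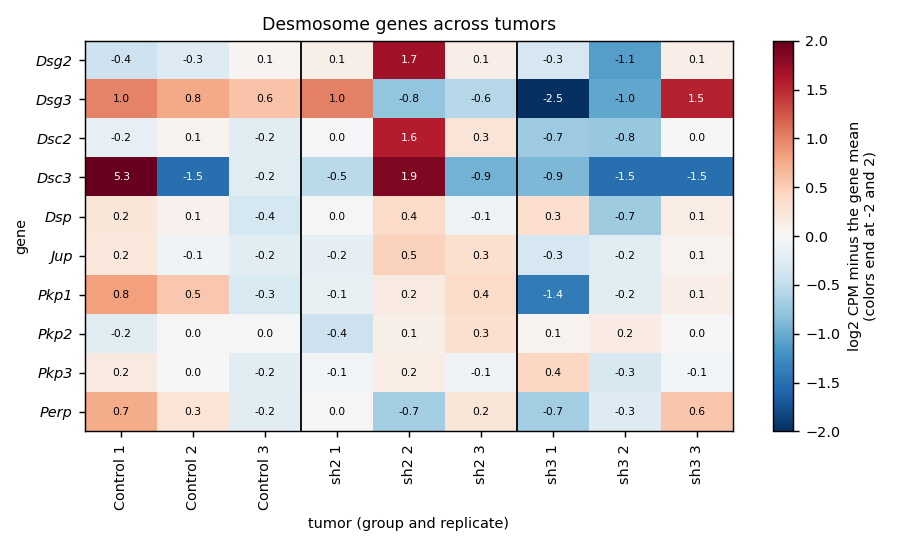
Level of each desmosome gene in each tumor, as log2 CPM minus the mean of that gene over the 9 tumors; red is above and blue below the mean, and colors end at -2 and 2. Vertical lines separate the groups; the columns of sh2 replicate 2 and sh Control replicate 1 hold 7 of the 10 highest values.

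Correlations over the 9 tumors were computed for all 45 pairs of members, of which 33 were positive, and 3 had a Benjamini-Hochberg adjusted permutation P under 0.05 for Pearson's r. *Dsp* and *Pkp3* were correlated most closely by rank, with r = 0.887 (exact permutation P = 0.00146, adjusted P = 0.0368) and Spearman's rho = 0.933 (exact permutation P = 0.00075, adjusted P = 0.0337). Without sh3 replicate 2 and sh Control replicate 3, which were farthest from the median of *Dsp*, r was 0.811. After the mean of each group was removed, r was 0.906 (exact permutation P within groups = 0.0185, adjusted P = 0.595). With 3 tumors a group the smallest P of this centred test is 0.00463, which is 0.208 after adjustment when a single pair of the 45 reaches it, so no single pair could pass on the centred values.

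*Dsc2* and *Jup* had r = 0.81 (exact permutation P = 0.00163, adjusted P = 0.0368) and rho = 0.867 (exact permutation P = 0.00451, adjusted P = 0.101), with r = 0.697 without sh2 replicate 2 and sh3 replicate 2. *Dsg2* and *Dsc2* had the highest r, 0.933 (exact permutation P = 0.00292, adjusted P = 0.0439), with rho = 0.8 (exact permutation P = 0.0138, adjusted P = 0.155). Without the same 2 tumors their r was 0.54, so the size of r depended on them. They were chosen as farthest from the median of *Dsg2*, and leaving them out also narrows the range. After the mean of each group was removed, r was 0.889 (exact permutation P within groups = 0.0556, adjusted P = 0.595).

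**Figure D5:**
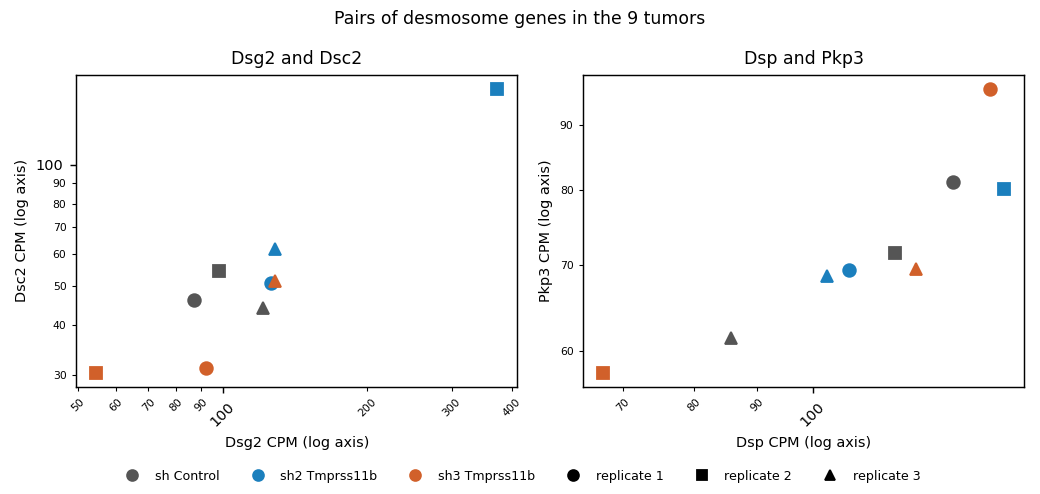
*Dsg2* against *Dsc2* and *Dsp* against *Pkp3* in CPM on log axes, 1 point per tumor, with the color giving the group and the symbol the replicate number. In the left panel sh2 replicate 2 lies far from the other tumors (373 and 154 CPM), while in the right panel the tumors of all groups follow a common line from sh3 replicate 2 upward.

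For the members with the widest range besides *Dsc3*, the genes with the most similar pattern were also sought among 14716 tested genes outside the member list. Those closest to *Dsg2* were *F2rl1*, a receptor cleaved by trypsin-like proteases, *Prkca*, a protein kinase C, and *Efcab5*, with root mean square differences of 0.25, 0.26 and 0.26 in mean-centred log2 CPM over the 9 tumors. All 3 were highest in sh2 replicate 2. Those closest to *Dsg3* were *Pappa*, *Ppargc1a* and *BC021891*, with larger differences of 0.40, 0.44 and 0.45.

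The genes around the desmosome were counted by lists, none of which had a gene past the FDR threshold in edgeR's quasi-likelihood test in any comparison. Of 11 other desmosome and plakin genes, 6 were tested. Of these 6, 4 had a value above 0 with sh2 (51.8% of all genes) and 3 with sh3 (54.9%). The medians of the list were 0.27 and -0.07. *Dsg1a* and *Dsc1* were found mainly in sh Control replicate 1, and *Dsg1b*, *Dsg1c* and *Dsg4* did not exceed 0.170 CPM in any tumor. Periplakin (*Ppl*), a plakin of the cornified envelope, was at 152, 129 and 146 CPM with the control shRNA, 148, 269 and 172 CPM with sh2 and 78.3, 115 and 125 CPM with sh3, so that the sh3 tumors were below all others. Its log2 fold change in sh3 tumors was -0.42 against the control (unadjusted P = 0.124, edgeR) and -0.89 against sh2 (unadjusted P = 0.00603, FDR = 0.673, edgeR). Of the 6 genes, *Ppl* was the only 1 whose sh3 tumors did not overlap with the controls (12.2% of all genes) or with sh2 (10.2%). For sh3 against sh2, 2 of the 6 had an unadjusted P under 0.05 in edgeR (7.18% of all genes).

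Of 11 adherens junction genes, which encode the neighboring actin-linked junction, 8 had a value above 0 with sh2 (51.8% of all genes), 2 of them with an unadjusted P under 0.05 (3.52% of all genes), and 3 did not overlap with the controls (11.4% of all genes). *Ctnna1* (α-catenin) ranged from 568 to 660 CPM in control tumors and measured 691, 1268 and 761 CPM with sh2. *Ctnnb1* (β-catenin) had a log2 fold change of 0.46 (unadjusted P = 0.0307, FDR = 0.999, edgeR). With sh3, 5 of the 11 were above 0 (54.9% of all genes; 2 of the 11 without sh Control replicate 1) and none had an unadjusted P under 0.05 (6.63% of all genes). The median log2 fold change of this list was 0.28 with sh2 and -0.01 with sh3.

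Of 11 tight junction genes, 10 were above 0 with sh2 (51.8% of all genes), of which *Ocln* (0.49) and *F11r* (0.55) had an unadjusted P under 0.05 (3.52% of all genes). *Cldn1*, the claudin of the epidermal barrier, was the exception at -1.39 (unadjusted P = 0.0537, FDR = 0.999, edgeR). Its sh2 tumors were all below the controls, the only 1 of the 11 genes without overlap (11.4% of all genes). With sh3, 8 of 11 were above 0 (54.9% of all genes) and none had an unadjusted P under 0.05 (6.63% of all genes). For 1 of the 11, higher with sh3, the sh3 and control tumors did not overlap (12.2% of all genes). The medians were 0.29 with sh2 (0.13 without sh2 replicate 2) and 0.16 with sh3 (0.046 without sh Control replicate 1 and -0.034 without sh3 replicate 1). Among 6 hemidesmosome genes, whose products fasten basal cells to the basement membrane, *Col17a1* was at 14.4 CPM in sh Control replicate 1 and at most 0.505 CPM in all other tumors, and the medians of the list were -0.05 and 0.03. Without that tumor they were 0.09 and -0.015, and without sh3 replicate 1 the sh3 median was -0.42.

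Of 9 keratins to which desmosomes attach, 6 were below 0 with sh2 and 8 with sh3. Of all genes, 51.8% and 54.9% were above 0. At an unadjusted P under 0.05 in edgeR, 1 was higher and 1 lower with sh2 (3.52% of all genes). With sh3, 3 were lower (6.63% of all genes). The groups did not overlap for 1 keratin with sh2 (11.4% of all genes) and 2 with sh3 (12.2%), all lower. The keratin medians were -1.27 and -0.72, beside 0.01 and 0.03 for all genes tested. The sh2 median rested on sh Control replicate 1, the tumor with the epidermis genes. In that tumor *Krt5* was at 87.3 CPM against 0.455 and 0.573 CPM in the other control tumors. Without that tumor, left out of the list fits after seeing the data, 4 keratins were below 0 with sh2 and 8 with sh3, with medians of 0.38 and -0.19. The sh3 median was also -0.33 without sh3 replicate 1, -0.38 without sh Control replicate 2 and -1.16 without sh3 replicate 3. The simple keratins *Krt8* and *Krt18* had log2 fold changes of 0.40 and 0.45 with sh2 (unadjusted P = 0.216 and 0.134, edgeR). The keratin counted as higher with sh2 was *Krt19*, at 0.79 (unadjusted P = 0.0374, FDR = 0.999, edgeR). *Krt8*, *Krt18* and *Krt19* were each highest in sh2 replicate 2, at 1787, 1598 and 2125 CPM. *Krt16*, an inducible keratin of the squamous type, had -3.02 with sh2 and -2.71 with sh3 (unadjusted P = 0.00306 and 0.00533, edgeR), without reaching the FDR threshold. Without sh Control replicate 1 the *Krt16* values were -2.06 and -1.76. Among transcription factors of epithelial adhesion genes, *Grhl2* had a log2 fold change of 0.45 with sh2 (unadjusted P = 0.0434, FDR = 0.999, edgeR), with all sh2 tumors above all controls, and *Grhl1* had -1.20 with sh3 (unadjusted P = 0.0375, FDR = 0.753, edgeR), with all sh3 tumors below all controls. Of the 13 factors, 3 were higher and 1 lower without overlap with sh2 (11.4% of all genes), and 1 was lower with sh3 (12.2%). At an unadjusted P under 0.05 in edgeR, 2 of the 13 were higher with sh2 (3.52% of all genes) and 1 was lower with sh3 (6.63%).

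In the GENCODE annotation of GRCm38, *Jup* lies at chr11:100368958-100397763 on the minus strand and *Dsp* at chr13:38151294-38198577 on the plus strand. *Pkp1*, *Pkp3*, *Perp* and *Pkp2* are on chromosomes 1, 7, 10 and 16. The promoters of *Dsp* and *Jup* were at hand in the RefSeq promoter table, the only ones among the 10 members. They are shown for that reason. Both genes hold the junction together in all desmosomes, and both were among the steadier members. Each run gives the 250 bases before the transcription start in GRCm38.p6, 5′ to 3′ on the strand of the gene, with CG dinucleotides in capitals. The *Dsp* promoter is chr13:38151044-38151293 on the plus strand and the *Jup* promoter is chr11:100397791-100398040 on the minus strand.
Dsp: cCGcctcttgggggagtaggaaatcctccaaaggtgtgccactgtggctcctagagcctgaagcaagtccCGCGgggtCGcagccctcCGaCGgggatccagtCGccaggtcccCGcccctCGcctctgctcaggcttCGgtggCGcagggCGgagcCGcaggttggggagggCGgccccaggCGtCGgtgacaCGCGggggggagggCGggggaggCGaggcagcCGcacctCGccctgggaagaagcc
Jup: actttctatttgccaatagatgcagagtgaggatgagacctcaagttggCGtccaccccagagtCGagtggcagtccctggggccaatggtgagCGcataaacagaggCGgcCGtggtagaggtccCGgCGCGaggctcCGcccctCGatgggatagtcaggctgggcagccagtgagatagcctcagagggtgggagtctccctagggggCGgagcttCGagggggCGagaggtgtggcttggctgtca

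The *Dsp* run is 72.4% G and C, above 93.6% of the 32851 promoters in the table, and holds 22 CG dinucleotides. The *Jup* run is 62.0% G and C, above 76.7% of promoters, and holds 13. The median promoter has 52.4% and 6. In the window from 250 bases before to 50 after the start, searched on both strands, neither gene had the grainyhead motif AACCNGTT (2.09% of all promoters in the table), the AP-1 motif TGANTCA (7.81%) or the TATA box TATAAA (13.6%). The E-box CACCTG occurred in *Dsp* only, at position 3 after the start and so outside the run shown, and in 20.2% of all promoters. The core of the p53 family motif, which occurs in 70.2% of promoters, had 3 overlapping or nearby matches in *Dsp*, all after the start, and none in *Jup*.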

How the data were processed

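RNA of 9 tumors was analysed, 3 in each of 3 groups, with groups and replicate numbers as the sample labels give them. The library kit was stranded and selected poly-A RNA. The submitters' processing notes name FastQC, STAR 2.5.3a, featureCounts, edgeR and the build mm10. The gene annotation is named only as iGenomes in the deposited table, and the strand setting of the counting is not given in the sources used here. The authors deposited raw read counts per gene, which were used for all tests. The deposited normalized signal, CPM, was used only to check own CPM, which differed from it by at most a relative 0.00448. The TPM deposited by the authors were used for levels between genes and for shares. The log2 fold changes, the likelihood ratio score and the p-values deposited by the authors belong to their own comparisons, 10 columns, and were not used.

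Counts were fitted in edgeR 4.0.16 (R 4.3.3) with filterByExpr by group, TMM normalization, 1 coefficient per group for all 9 tumors and the robust quasi-likelihood F test. The Benjamini-Hochberg adjustment was made over all 14725 genes tested, with an FDR of 0.05 as threshold. Intervals of fold changes are at 95%. Log2 CPM used a prior count of 2. Exact permutation tests were two-sided, with a smallest P of 0.1 for 3 tumors against 3 and 0.0119 for 6 against 3. Nothing in the labels beyond "biol rep" says how replicates were kept apart, so P values measure the spread between these tumors. Total counts ranged from 20653219 to 24047784, and floors cover counting error only, since the reads carry no molecular identifiers.

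Tumors with the same replicate number did not deviate together: the mean correlation of their deviations from the group means was -0.099 (range -0.235 to 0.0863 over 9 pairs), against 0.0519 over 18 pairs with different numbers. The numbers were therefore not used to pair tumors.

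All 10 members are named, with *Tmprss11b*. Of the lists of other desmosome, adherens junction, tight junction, hemidesmosome, keratin and transcription factor genes, those named are genes whose groups do not overlap or that are best known, and some results of the lists are not reported here. The 3 genes most like a member were those with the smallest root mean square difference in centred log2 CPM, for the 3 members with the widest range. Members, lists and markers were chosen with earlier results of these data known. The alternatives were DESeq2 1.42.0 (Wald test), its size factors within edgeR, the edgeR likelihood ratio test, no filter, at least 10 counts in every tumor, the groups compared alone, the replicate block, a prior of 0.5, log2(TPM + 1), and each tumor left out in turn, which for the medians of the context lists was added after seeing the data. RefSeq promoters were matched by symbol, 2 of 10.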

Additional observations from a re-analysis of the deposited data

How the results depend on the processing

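No member passed an FDR of 0.05 under any alternative run. The number of genes called over the whole table, 0 in each comparison, was 2, 41, 11 and 64 with DESeq2's Wald test (sh2 against control, sh3 against control, the mean of both against control, and sh3 against sh2), and 8, 8 and 14 with the edgeR likelihood ratio test in the last 3 of these. It was 0 in all 36 counts from the fits that left out 1 tumor, each fit being read in every comparison. The cause of these differences was not tested. The median of the members moved to between -0.58 and -0.085 for sh3 against the control and to between -0.70 and -0.11 for sh3 against sh2 when each tumor was left out in turn, with both lowest values without sh3 replicate 3. With the replicate number as a block, *Dsg3* in sh3 against sh2 was -0.16 in place of 0.15, *Dsg2* in sh2 against control was 0.98 (unadjusted P = 0.0892, edgeR), and no call over the table changed. Since the numbers did not pair the tumors, this fit was only an alternative.

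Small differences changed sign with the tumors used. With sh Control replicate 1 and sh2 replicate 2 left out together, an alternative added after seeing the data, values were 0.10 for *Perp* in sh2, 0.10 for *Dsp* in sh3, -0.10, -0.024 and 0.00882 for *Dsc2*, *Dsg2* and *Perp* in the mean of both, and -0.17, 0.049 and -0.19 for *Dsg3*, *Dsp* and *Perp* in sh3 against sh2. Over the fits without 1 tumor, the ranges that crossed 0 were as follows. With sh2 they were -0.074 to 0.22 for *Dsp*, -0.069 to 0.13 for *Pkp3* and -0.048 to 0.29 for *Pkp2*. With sh3 they were -0.23 to 0.23 for *Dsp*, -0.17 to 0.21 for *Pkp3* and -0.50 to 0.11 for *Dsg2*. For the mean of both they were -0.13 to 0.16 for *Dsp*, -0.042 to 0.18 for *Jup*, -0.070 to 0.14 for *Pkp3* and -0.069 to 0.40 for *Dsc2*. For sh3 against sh2 they were -1.90 to 1.01 for *Dsg3*, -0.32 to 0.15 for *Dsp*, -0.40 to 0.29 for *Perp*, -0.16 to 0.18 for *Pkp2* and -0.19 to 0.19 for *Pkp3*. On log2(TPM + 1), values were -0.10, -0.068, -0.0046 and -0.084 for *Dsp*, *Jup*, *Pkp2* and *Pkp3* in the mean of both, -0.018 for *Pkp3* in sh2, -0.040 and -0.15 for *Pkp2* and *Pkp3* in sh3, and -0.13, -0.071 and -0.13 for *Perp*, *Pkp2* and *Pkp3* in sh3 against sh2. The median of all genes tested was shifted by -0.04, -0.16, -0.10 and -0.11 on that scale in the 4 comparisons.

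The fit of only the groups compared has no value for the mean of both, *Dsc3* was tested only with no filter or with some tumors left out and passed no FDR threshold there, and *Dsg3* was not tested under at least 10 counts in every tumor. With 3 tumors a group, the intervals of *Dsg2*, *Dsg3*, *Dsc2*, *Pkp1* and *Perp* leave room for differences of more than a log2 unit.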
